A study of Mus musculus with 10 samples.

Results

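The regions described are the 6764 peaks that the authors called in RNA of Mettl3 knockout mouse embryonic stem cells after precipitation with an antibody against N6-methyladenosine (m6A). They are all the entries of the knockout m6A list, 1 of 3 peak lists that together hold 50124 regions, and none was left out. The other lists come from Mettl3 wild-type cells (12368 peaks) and from a pull-down of Halo-tagged YTHDC1 in Halo-Ythdc1 knock-in cells, abbreviated RIP (30992 peaks). The knockout group has 4 of the 10 samples, 2 m6A precipitates and 2 inputs, labelled polyA RNA. The culture text shared by all samples describes male stem cells from 129 mice in feeder-free medium with serum and LIF, a cytokine that holds such cells in the pluripotent state, but it does not name the Mettl3 lines. The labels describe the cell type of these samples as wild type while their titles and source names read Mettl3-KO, and the titles were followed. The sources used here do not give how the knockout was made, whether 1 or several clones were used, or which antibody and fragmentation served the precipitation. The label of only 1 of the 2 knockout precipitates names the knockout list, and that of the other names the wild-type list. The list therefore carries no replicate spread: each region has a chromosome, a start and an end, with no height, read count or strand. Read depth is unknown, and every interval below is an exact Clopper-Pearson 95% interval that covers counting error only.

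METTL3 is the catalytic subunit of the complex that places most m6A on messenger RNA, chiefly inside long exons and near stop codons. Antibodies against m6A can also bind a related mark, N6,2'-O-dimethyladenosine (m6Am), which another enzyme, PCIF1, places on an adenosine next to the cap at the 5' end of a transcript. A few other methyltransferases place m6A at single sites of small nuclear and ribosomal RNA. Peak calls in a METTL3 knockout are accordingly used as a record of what an antibody pulls down when this enzyme is missing. Which chemical mark, if any, lies under each peak was not measured in these data.

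Many of the peaks lay at the starts of genes, and 8 such starts are shown here because a knockout peak covered all of the 401 bp that lie within 200 bp of them. Their peaks, of 500 bp or more, are not typical. The median width of peaks at starts was 250 bp, and 1.20% of them reached 500 bp. Each line gives 30 bases of RefSeq sequence (GRCm38.p6, the assembly of mm10) in the direction of transcription, with the annotated start base as the capital at position 16.

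Paics: ctagggcaaagagagGggcggggctacgga

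Sdf2: gagtgggagggtcatTtcctgctgtctttt

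Dpy30: cgcgggggtgaggggCggggtcccgggctg

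Gnl3: cgtaaatccaacctgTggccgccaggcgag

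Ndufs3: tcactgcacatttccActtccggtccgtgc

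Rmi1: gggaggggcgactgcGgggggattttcgag

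Senp3: ggcgggactgagcacGagccggcgctgctc

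Ahsa1: aaaagcaagccaggaGgtgctgtgctgctt

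The peak at the start of Paics, which encodes an enzyme of purine synthesis, was 1050 bp wide (chr5:76950851-76951900, plus strand), and the sequence above is chr5:76951287-76951316. The peak over the start of Sdf2, an endoplasmic reticulum protein, spanned 700 bp (chr11:78245501-78246200). Dpy30, a core subunit of histone H3K4 methyltransferase complexes, had a 650 bp peak (chr17:74315851-74316500, minus strand), as did Gnl3, which encodes the nucleolar protein nucleostemin (chr14:31018701-31019350, minus strand). Another peak of 650 bp lay over the start of Ndufs3, a subunit of respiratory complex I (chr2:90904351-90905000, minus strand), the only gene of the 8 whose annotated start base is A. The remaining peaks shown were 550 bp at Rmi1, a partner of the BLM helicase, 550 bp at the SUMO protease gene Senp3 and 500 bp at Ahsa1, an activator of the chaperone HSP90. Their midpoints lay from 22 bp upstream (Rmi1) to 106 bp downstream (Gnl3) of the start base.

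Genes were taken from the RefSeq span that holds the midpoint of a peak, among 34614 protein-coding and long non-coding RNA (lncRNA) genes. A span held 6473 of the 6764 peaks (95.7%) and 291 lay outside. Strand and annotated starts were known for 27025 of these genes, and 5323 of the peaks in genes (82.2%) fell in them. Of the 6764 peaks, 1997 had their midpoint within 200 bp of an annotated start of their gene and are called start peaks. A further 27 lay within 200 bp of the finish, the span end where transcription runs out, and 3299 lay elsewhere in the span and are called inner peaks. The remaining 1150 lay in genes of unknown strand, where 346 (30.1%, 27.4 to 32.8%) were within 200 bp of either end.

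Start peaks made up 37.5% (36.2 to 38.8%) of the peaks in genes of known strand. With the outermost end of the span in place of any annotated start, 1533 peaks (28.8%, 27.6 to 30.0%) were within 200 bp of the start and 27 (0.507%, 0.335 to 0.737%) within 200 bp of the finish. The 2 ends of a gene were therefore not alike in this list, and nearly all of its peaks at gene ends lay at starts. In the wild-type list the same counts were 301 and 129 of 9623 peaks (3.13% and 1.34%). The lists differed in the balance of the 2 ends (two-sided Fisher's exact test of start against finish counts, p = 5.7e-66). The odds ratio was 24.3, with a 95% Wald interval of 15.8 to 37.5. Peaks are not replicates, so this test compares the lists and not the genotypes. Many genes hold several peaks, and 17.8% of start peaks overlap a wild-type peak, so the counts are not independent. The p-value and interval measure no spread between samples. The odds ratio was 10.7 with a window of 100 bp and 39.1 with 500 bp. A 200 bp window holds few wild-type peaks at either end, and the wild-type list as a whole was not biased to starts. Within 1000 bp of the finish lay 22.3% of wild-type and 4.72% of knockout peaks. Within 1000 bp of an annotated start of the gene lay 9.93% and 48.4%.

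The peaks at starts lay mostly on the transcribed side. They were called in RNA, which lies downstream of its start, so this side alone is no trait of these peaks. Chromosome 18, with 162 peaks, had no annotated starts in the reference used, so all its genes are of unknown strand. Counting the nearest annotated start of any gene, 2141 of 6602 peaks on the chromosomes that have annotated starts lay within 200 bp (32.4%, 31.3 to 33.6%). Of these, 1951 (91.1%, 89.8 to 92.3%) had the midpoint downstream, at a median of 89.5 bp and with quartiles of 56.5 and 124.5 bp. The peak reached over the start base itself in 1606 (75%). Each peak edge lies on a 50 bp grid, so the offset is known no more finely than that. Only 45 of the 2141 lay outside a gene span.

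**Figure D1:**
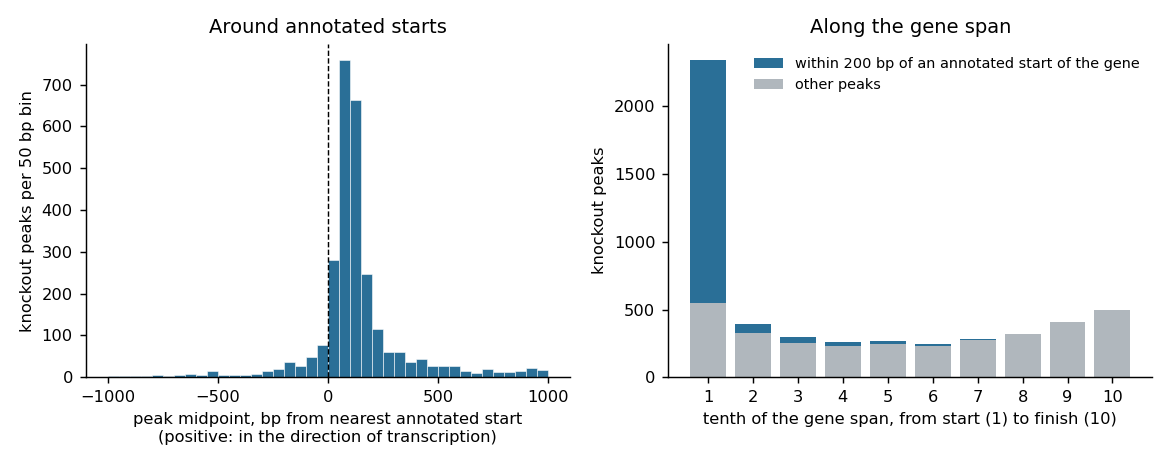
Left, number of knockout peaks per 50 bp bin by distance of the midpoint from the nearest annotated start; right, number of knockout peaks in each of 10 equal parts of the gene span, with the peaks within 200 bp of an annotated start of the gene in blue and all others in grey. The left panel peaks 50 to 150 bp downstream of the start, and the right panel shows 2343 of 5323 peaks in the part nearest the start and 497 in the part nearest the finish.

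Without the start peaks the list had 2 shallow maxima along the span. With the span in 10 equal parts, the one nearest the start held 552 of these peaks (16.6%). It includes peaks just beyond the 200 bp limit of start peaks. Within 1000 bp of an annotated start of the gene lay 2578 of 5323 peaks, against 1997 within 200 bp. The share was 6.89% in the fourth and 6.92% in the sixth, and it reached 12.2% in the ninth and 14.9% in the last. Inner peaks had a median distance of 9.48 kb from the nearest annotated start and 10.6 kb from the finish. Spans include introns, and exons were not analysed here, so the place of a peak in the spliced RNA is not given.

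Start peaks and inner peaks had the same median width, 250 bp, with quartiles of 200 and 300 bp. They differed among the wide ones. Peaks of 500 bp or more numbered 24 among start peaks (1.20%) and 193 among inner peaks (5.85%), and 294 in the whole list (4.35%). Only 15 peaks reached 1000 bp. At the other extreme 459 peaks were 100 bp wide, the least that occurs.

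The start base and the bases around it were compared among starts with a knockout peak, starts of genes whose knockout peaks lay elsewhere, and all annotated starts, with no test. The starts with a knockout peak within 200 bp belong to 2293 genes, more than the 1978 genes with a start peak. The peak near such a start was thus not always one assigned to that gene. The annotated start base was A at 760 of 2492 starts with a knockout peak within 200 bp (30.5%, 28.7 to 32.3%), at 438 of 1566 starts of genes whose knockout peaks all lay elsewhere (28.0%, 25.8 to 30.3%) and at 11288 of all 32851 annotated starts (34.4%, 33.8 to 34.9%). G was the commoner start base, at 46.2%, 47.4% and 35.6% in the same order. The pair CA across the start was found at 20.1%, 17.7% and 19.2%. The 300 bases from 250 before to 50 after the start had a mean GC content of 61.1% at starts with a peak. It was also 61.1% at starts of genes with peaks elsewhere, and 53.8% over all starts. The mean number of CG pairs was 22.6 at starts with a peak, 21.6 at starts of genes with peaks elsewhere and 12.4 over all. GGGCGG, the core of the GC box, stood on either strand of 68.1%, 62.5% and 35.7% of these windows, and TATAAA on either strand of 5.94%, 7.22% and 13.6%. GGAC, the letters most often methylated by METTL3, were on either strand of 92.3%, 91.7% and 87.7%. These shares cannot bear on METTL3 sites. So short a word is found in most windows, and 250 of the 300 bases lie before the annotated start. In GC content and CG pairs the starts with a peak and the starts of genes with peaks elsewhere stood nearer to each other than to all starts. Annotated starts are single reference positions, and the bases at which these cells begin their transcripts were not measured.

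The 6473 peaks in spans were held by 3946 genes, 11.4% of all genes considered. Of these, 3882 were protein-coding (17.7% of 21887) and 64 were lncRNA genes (0.503% of 12727). One peak was found in 2394 genes, 2 in 1001, 3 in 330 and 4 in 114, and 107 genes had 5 or more. Those 107 genes held 631 peaks, 9.75% of the total in spans. The 1552 genes with 2 or more peaks had 2527 gaps between neighbouring peaks, with a median of 2.55 kb. In 803 of these gaps (31.8%) the next peak came within 1000 bp.

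Longer spans did not hold peaks in proportion to their length. The share of protein-coding genes with a peak was 9.1% for spans up to 5 kb, 21.3% from 10 to 20 kb, 22.3% from 50 to 100 kb and 10.3% above 200 kb. Per 100 kb of span the count went from 5.48 peaks in the shortest class to 0.0382 in the longest. Genes with 1 peak had a median span of 20.8 kb, those with 2 peaks 20.3 kb and those with 5 or more 50.9 kb, against 17.2 kb for all protein-coding genes. By chromosome, the share of protein-coding genes with a peak was highest on chromosome 11 (21.6%) and 15.9% on the X and 1.17% on the Y chromosome.

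Genes with a single peak and genes with many peaks held them in different places. Among 1971 genes of known strand with 1 peak, that peak was at the start in 1140 (57.8%). The share of peaks at a start was 34.8% in genes with 2 peaks, 22.8% with 3, 15.6% with 4 and 8.02% with 5 or more. A start peak without any other peak was found in 1149 genes, a start peak together with others in 829, and no start peak in 1268. Since a gene rarely has more than 1 start peak (19 genes had 2, and none had more), the share must fall as the number of peaks grows. The share of genes with at least 1 start peak does not have this limit, and it was 57.8%, 68.4%, 66.3%, 60.0% and 44.9% in the same classes. That share has a limit of its own, since more peaks give more chances of 1 at a start. Genes with 5 or more peaks also had longer spans (median 50.9 kb, against 20.8 kb with 1 peak). Neither part was tested.

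**Figure D2:**
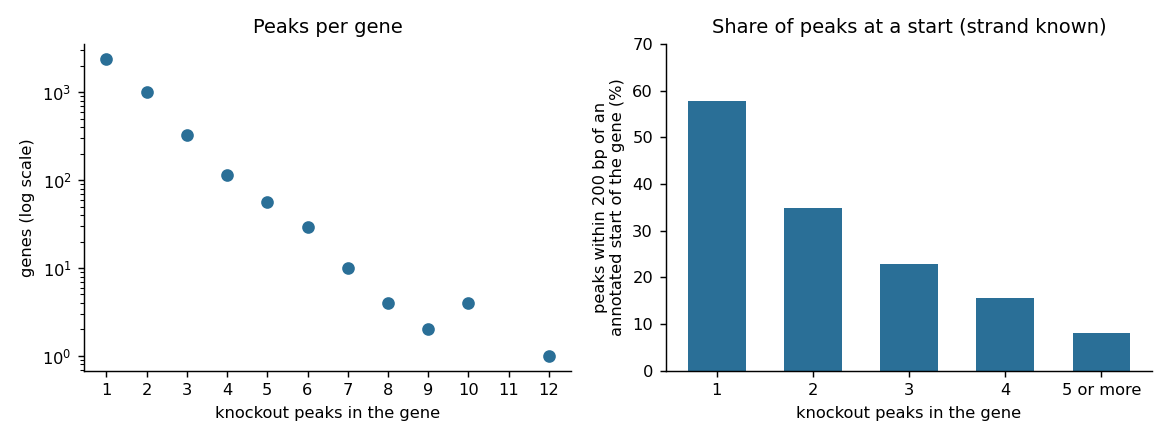
Left, number of genes (log scale) by number of knockout peaks in the gene; right, percent of peaks within 200 bp of an annotated start of the gene, for genes of known strand with 1, 2, 3, 4 and 5 or more peaks. The left panel falls from 2394 genes with 1 peak to 1 gene with 12, and the right panel falls from 57.8% to 8.02%.

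The gene with most peaks was Mdn1, which encodes midasin, a giant ATPase of ribosome biogenesis. It had 12 peaks, of 100 to 400 bp, that covered 2550 bp of its 118 kb span. All 12 were inner: the first lay 81.6 kb from the span start (chr4:32738551-32738950) and the other 11 stood between 97.5 and 109 kb, the last at chr4:32765601-32765750. The genes with 10 peaks followed, 4 in number. Eif5b, the GTPase that joins the ribosomal subunits at the end of initiation, had 10 inner peaks over 2950 bp, 1 of them just outside the start window at 0.215 kb (chr1:37998051-37998400) and the others from 19.9 to 39.2 kb. Atf7ip, the partner of the histone methyltransferase SETDB1, had 10 over 2600 bp, from 45.0 kb of its 92.1 kb span onward, the widest of 750 bp (chr6:136587001-136587750). Dhx38, a helicase of the splicing cycle, packed 10 peaks over 2400 bp into 17.9 kb, a density of 5.60 peaks per 10 kb against 1.02 in Mdn1. Gigyf2, a translational repressor, had 10 over 2200 bp of a 124 kb span, 1 at the start and 9 inner.

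Several of the next genes act on RNA or chromatin. Fip1l1, a subunit of the cleavage and polyadenylation complex, had 9 peaks, and so had Dnmt1, the maintenance DNA methyltransferase. All 9 in Dnmt1 were 100 to 300 bp wide and lay in the middle of the span, from 14.6 to 25.8 kb downstream of an annotated start (chr9:20926651-20938100 from the outer edges). Acin1, a component of splicing-associated complexes, had 8 peaks over 2600 bp, as wide as 550 bp. Kmt2a, a histone H3K4 methyltransferase, had 8 that all were inner, the widest of 650 bp (chr9:44848751-44849400). Safb, a scaffold attachment factor that binds RNA, had 8 in 21.3 kb. Zc3h18, a zinc finger protein that links cap-bound RNA to nuclear decay, had 8 in 40.8 kb. Next came 10 genes with 7 peaks each, of which the 4 with most covered length are named here. They were Akap12, an anchor of protein kinase A, Myh9, a non-muscle myosin heavy chain, Nsrp1, a speckle protein that regulates splicing, and the topoisomerase gene Top1. The 7 in Myh9 lay between 67.1 and 77.7 kb of an 81.6 kb span and were 200 to 450 bp wide.

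**Figure D3:**
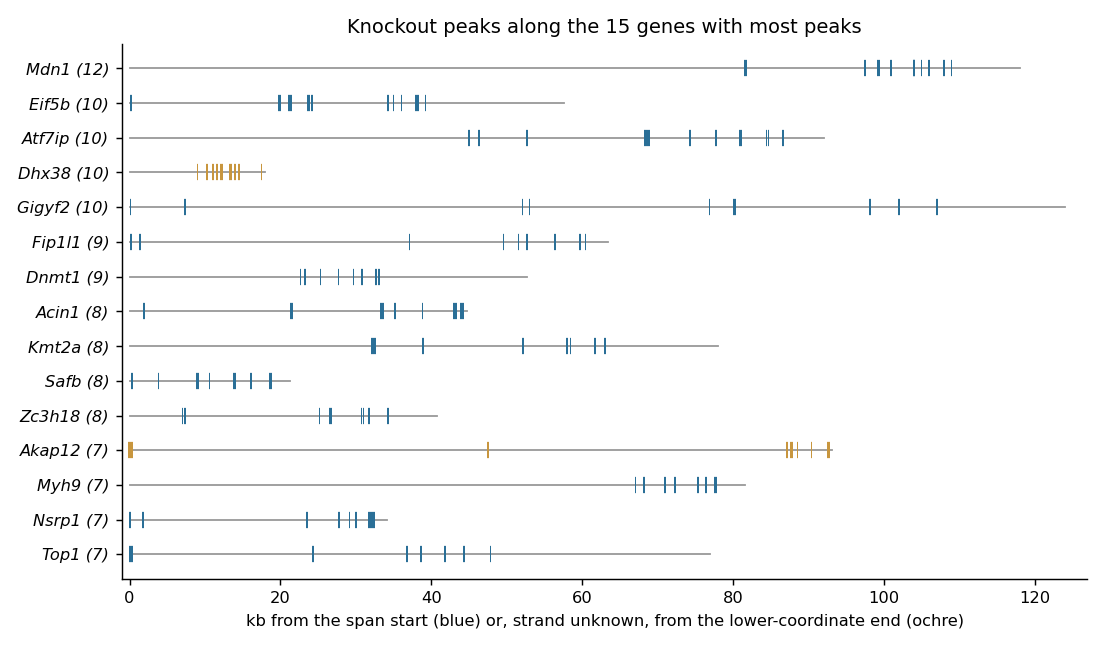
Knockout peaks (bars, to scale) along the spans (lines) of the 15 genes with most peaks (ties by covered length), in kb from the span start, or from the lower-coordinate end (ochre) for Dhx38 and Akap12, whose strand was unknown; the number of peaks is in brackets. In Mdn1 and Myh9 all peaks lie in the last part of the span, in Dnmt1 in the middle, and in Gigyf2 and Acin1 from near the start to 86.2% and 98.4% of the span.

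By covered length the order changed. Among the genes reported here Eif5b led with 2950 bp, followed by Cald1, which encodes caldesmon, with 2800 bp in 6 peaks, then by Atf7ip and Acin1 with 2600 bp each and by Mdn1. Kat6b, a histone acetyltransferase, covered 2500 bp in only 4 peaks, all within 10.1 kb of the finish of its 173 kb span. It held the widest peak of the list (1450 bp, chr14:21668251-21669700). Drosha, the nuclease that cuts microRNA precursors out of their transcripts, had 6 peaks over 2100 bp. They comprised 1 at the start, 1 at the finish (chr15:12934901-12935300) and 4 inner ones, among them 1 of 850 bp (chr15:12833751-12834600). The median over the 3946 genes was 300 bp.

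The next widest peaks followed in other genes. Polr2a, the largest subunit of RNA polymerase II, had a peak of 1350 bp with its midpoint 1.08 kb from the finish (chr11:69734401-69735750) and a 400 bp peak at the start. Rrbp1, a ribosome-binding protein of the endoplasmic reticulum, and Raph1, a regulator of the leading edge of migrating cells, each had a peak of 1250 bp. The widest peak of Kmt5c, a histone H4K20 methyltransferase, was 1200 bp and lay 0.574 kb past a start (chr7:4740101-4741300). Peaks of 1150 bp lay in Cald1, in the phosphatase gene Ptpn23 and in the ubiquitin ligase gene Rnf44, and inner peaks of 1050 bp in the cyclophilin gene Ppig and in Hirip3, the same width as the start peak of Paics.

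Compact genes with several peaks were covered over much of their span. Mt2, which encodes a metallothionein, had 2 peaks that covered 78.9% of its span. Pole3, a small subunit of DNA polymerase epsilon, had 3 peaks over 750 bp of 1.22 kb, 1 at the start and 2 inner. Mif, a cytokine gene, had 2 peaks, the polyubiquitin gene Ubb had 3 over 1150 bp, and Trappc1, of a vesicle tethering complex, had 2 over 900 bp. At the extreme a single 500 bp peak covered 99.2% of the 0.504 kb span of the histone gene H2ac10.

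Groups of genes were then described by how many members had a knockout peak, beside 17.7% of all protein-coding genes. The lists were drawn up with earlier results on these data known, so the counts are descriptions. Of the lists, 17 were chosen gene by gene. The others, such as the Zfp genes, took protein-coding genes by the form of their symbol, and can include genes that share only the name. Of 37 lists, 31 had a share above the 11.4% of all genes considered, and 23 had one above that of protein-coding genes when only protein-coding members were counted. Expression is not in the files, and unexpressed genes stand in every denominator.

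Several groups of RNA processing genes had a peak in most members. Of 36 splicing factors and speckle proteins, 30 had a peak (83.3%, 67.2 to 93.6%), with 75 peaks between them. Beside Acin1 these were led by Rbm25 and Snrnp70, components that act at 5' splice sites, with 5 peaks each, and by the speckle protein Pnn with 4. Of 12 paraspeckle components 10 had a peak, among them Ewsr1 with 6, Nono with 5, and Sfpq and Hnrnpk with 4. The hnRNP and SR proteins counted 27 of 34 (79.4%), small nuclear ribonucleoproteins 20 of 32 and cleavage and polyadenylation factors 16 of 22, where Rbbp6 and Cstf2t followed Fip1l1 with 3 each. DEAD and DEAH box helicases counted 26 of 53, with 6 peaks in Ddx46 and 5 in Ddx23, both spliceosomal, after the 10 in Dhx38.

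The remodellers and the silencing list had several members with many peaks. Chromatin remodellers and bromodomain proteins had a peak in 19 of 30 (63.3%) and 67 peaks in all, with 7 each in Baz2b and Chd2 and 6 in Srcap. Of these 30 genes 14 had 2 or more peaks (46.7%), against 7.05% of protein-coding genes. The list of retrotransposon silencing counted 16 of 30 with 52 peaks, and 10 of the 30 had 2 or more (33.3%). After Atf7ip and Dnmt1 its leading members were Chaf1a, of the chromatin assembly factor CAF-1, and the dioxygenase gene Tet2, with 6 each. Polycomb and trithorax genes counted 19 of 30 with 33 peaks. Of these 30, 6 had 2 or more, and after Kmt2a no member had more than 3. The writers, erasers and readers of m6A counted 16 of 23. Zc3h13, a subunit of the methyltransferase complex, had 5 peaks, and Ythdc1 had 4 (1 at the start, 3 inner). Mettl14 had none, and neither did Mettl3, which does not test the genotype.

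Respiratory chain genes counted 44 of 92 (47.8%) with 69 peaks, among them Atp5g1 with 4 and Ndufv2 with 3. Mitochondrial ribosomal proteins counted 33 of 78 (42.3%), led by Mrpl42 with 4, and proteasome subunits and partners 25 of 51. Genes named Eif or Eef counted 34 of 71 with 66 peaks, 10 of them in Eif5b and 5 in Eif3a. In contrast, cytosolic ribosomal proteins had a peak in 15 of 86 (17.4%), close to the share of all protein-coding genes, as did Zfp genes with 60 of 397 (15.1%) and histone genes with 10 of 68 (14.7%). Solute carriers counted 46 of 375 (12.3%). The other families counted were Rbm genes with 18 of 42, CDK and cyclin genes with 21 of 51, Mediator and Integrator subunits with 18 of 45, kinesins with 14 of 42, heat shock and chaperonin genes with 25 of 84, ubiquitin-specific proteases with 16 of 56, and BTB and SCAN zinc fingers with 19 of 68. Ccnk, the cyclin partner of the polymerase kinases CDK12 and CDK13, had 6 peaks, and Kif3b, a motor of intraflagellar transport, had 5. Housekeeping genes counted 14 of 25, with 5 peaks in Ncl, the gene of nucleolin, and immediate early and feedback genes 5 of 29, with 3 in Etv5. None of 1110 olfactory receptor genes had a peak (exact interval up to 0.332%) and none of 69 protocadherins (up to 5.21%).

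The place of the peaks set some groups apart by description. Over members of known strand, 46.7% of respiratory chain genes had a start peak and 28.0% a peak elsewhere. For mitochondrial ribosomal proteins the shares were 37.7% and 26.1%, and for the proteasome 34.9% and 23.3% (15 and 10 of 43 genes). The order was opposite for chromatin remodellers, with 17.4% and 56.5% (4 and 13 of 23 genes). It was also opposite for Polycomb and trithorax genes, with 21.7% and 47.8% (5 and 11 of 23). Splicing factors had 44.8% and 72.4% (13 and 21 of 29). These shares rest on few genes, and their differences were not tested. Over all protein-coding genes of known strand the shares were 11.2% and 11.8%. The groups also differed in span, with a median of 7.11 kb in the respiratory chain, 82.9 kb in the remodellers and 22.4 kb in the splicing factors. The part of span in these shares was not tested.

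**Figure D4:**
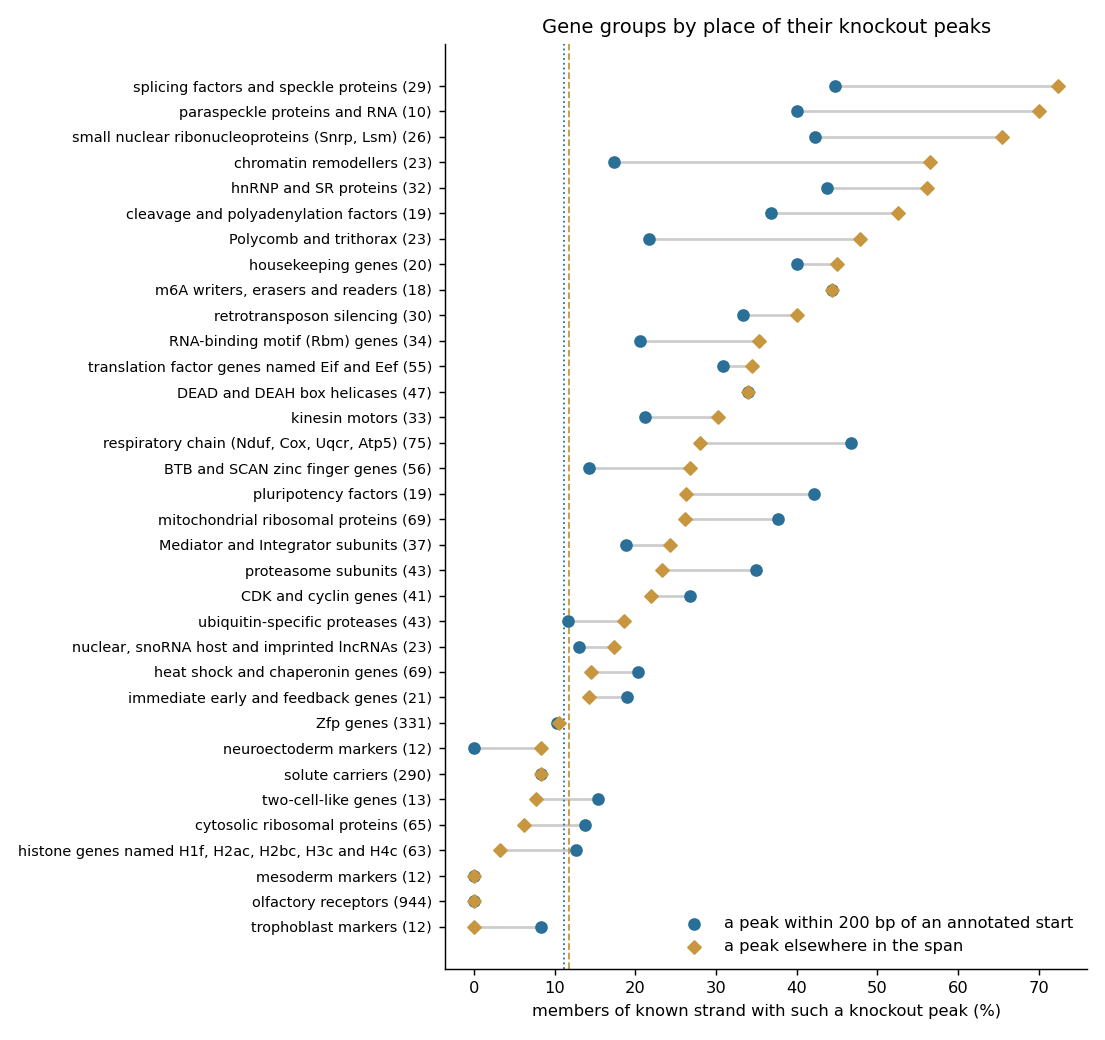
Percent of the members of known strand (number in brackets, lists with at least 10 shown) that have a knockout peak within 200 bp of an annotated start (blue circles) or elsewhere in the span (ochre diamonds); the dotted and dashed lines give the same shares, 11.2% and 11.8%, over all protein-coding genes of known strand. Respiratory chain genes lie further right for start peaks (46.7%) than for others (28.0%), and chromatin remodellers the other way (17.4% and 56.5%).

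Of 30 pluripotency factors 18 had a peak (60.0%). Among those of known strand, 42.1% had one at a start against 26.3% elsewhere (8 and 5 of 19 genes). Sox2 had a single 450 bp peak (chr3:34649951-34650400) and Klf4 a single one of 200 bp, with midpoints 0.180 and 0.124 kb past the start. Nanog likewise had 1 peak, 350 bp wide, 0.161 kb past a start (chr6:122707551-122707900). The single 150 bp peak of Pou5f1, the gene of OCT4, lay at the other end, 0.0515 kb from the finish. Zfp42, a marker known as REX1, had 3 peaks, 1 at the start, and Esrrb 2 inner ones. Of 8 stem cell markers 7 had a peak. Myc and the glycolytic gene Gapdh had none, and Actb had 1 of 200 bp.

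Markers of other cell types were counted in the same way. Of the defining markers of neuroectoderm 1 of 3 had a peak, the neural intermediate filament gene Nes. Mesoderm and endoderm had 0 of 3 each, and among fibroblast markers Thy1 alone of 3 had a peak. In the longer lists the counts were 1 of 16 for neuroectoderm, 0 of 15 for mesoderm, 0 of 17 for endoderm, 2 of 15 for trophoblast (Tfap2c and Krt8) and 2 of 15 for fibroblasts (Vim and Thy1). The exact intervals of these shares all include the 17.7% of protein-coding genes: they reach 30.2%, 21.8%, 19.5%, 40.5% and 40.5% in that order. The counts therefore do not set these markers apart from protein-coding genes at large. Genes of the rare 2-cell-like state counted 2 of 19. They were Zscan4d, with a peak at the start and another 0.748 kb from it, and Zscan4c, and as near-identical copies these can share reads.

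Few lncRNA genes had a peak, and those with most covered length included imprinted RNAs. H19, an imprinted RNA, had 4 peaks over 1000 bp of its 2.62 kb span, and Meg3, also imprinted, had 3 over 850 bp, 1 of them at the span start. The span of Xist, the RNA of X inactivation, held 1 peak of 750 bp, 0.958 kb past the start (chrX:103481901-103482650). Eprn and Abhd11os had 1 peak each, of 600 and 550 bp. Malat1 had 1 of 200 bp, 0.872 kb past its start, and Neat1 1 of 400 bp at the upper end of its span (chr19:5845101-5845500). The list of nuclear, snoRNA host and imprinted lncRNAs counted 10 of 31, against 0.503% of all lncRNA genes. Without strand in the files, a peak cannot be told apart from one of an RNA on the opposite strand.

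Of the 291 peaks outside spans, 82 (28.2%, 23.1 to 33.7%) were within 1000 bp of a span, and 45 of the 291 were within 200 bp of an annotated start. Pseudogenes alone were overlapped by 128, transcribed pseudogenes alone by 16, and no gene model of any kind by 144. The widest outside peak was 850 bp and lay nearest to a gene with a provisional name. Among those nearest to a named gene, the one by Zfp92 came first (800 bp, chrX:73397501-73398300), on a pseudogene. Those near Ecd, Gpc4 and Las1l were 650 bp wide, the first 2 within 0.152 kb of the span. Hairpins of microRNAs were overlapped at 10 of 1005, among them Mir7045 in the remodeller gene Chd4 and Mir7654 in Arglu1. The peaks at these 10 were not outside spans but assigned to host genes, so the count is not a result about hairpins.

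The YTHDC1 RIP list overlapped 1487 of the 6764 knockout peaks by at least 1 bp (22.0%, 21.0 to 23.0%). The share was 26.3% (24.4 to 28.3%) of start peaks, 19.3% (18 to 20.7%) of inner peaks and 29.6% (24.4 to 35.2%) of peaks outside genes. Among the genes with most peaks, Fip1l1 had 3 of 9 knockout peaks on a RIP peak, while Mdn1, Atf7ip, Dhx38, Dnmt1 and Kmt2a had none, although all of them but Dhx38 held RIP peaks elsewhere in the span. The RIP samples are labelled total RNA and come from another genotype, and their part in these shares was not tested. Genes with knockout peaks often held RIP peaks as well. Among protein-coding genes, 3002 of the 3882 with a knockout peak also held a RIP peak, against 9101 of all 21887. How much overlap would arise from shared genes alone was not tested, so the shares have no background to be read against.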

How the data were processed

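The authors deposited 3 peak lists of 3 columns, chromosome, start and end, so the values are of another kind than expression: positions in bp with no score. The build is mm10, per the submitters' processing notes, which also name MACS2 2.1.2, HISAT2 2.2.0, STAR 2.7, SAMtools 1.9 and Trim Galore 0.6.4. The sources used here do not give the step each tool served, the peak threshold, the use of the input or any pooling of replicates. Positions were counted from 1, and all peaks were kept.

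Genes came from the RefSeq table of GRCm38.p6, strand and annotated starts from RefSeq start sequences (27025 of 34614 genes, 32851 starts). None of these starts lay on chromosome 18. For 392 midpoints in several spans, coding genes were preferred over lncRNA genes and short spans over long ones. Start peaks were defined by annotated starts after the data were seen. The comparison planned used span ends. Exons and genome sequence were not used. The members, gene lists and tests were chosen with earlier results of these data known.

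Named genes were the 15 with most peaks and with most covered bp, the 10 widest, 5 by covered share, 5 lncRNAs, the 5 widest peaks outside spans, up to 4 per list, 8 printed starts and fixed genes. Provisional names are counted but not printed, and 1 further gene that met these criteria is not reported here. The assignment was tested on simulated data, with 200 planted peaks in each of 3 places, all recovered. Python 3.11.15, pandas 2.3.3, NumPy 2.4.6 and SciPy 1.17.1 were used.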

Additional observations from a re-analysis of the deposited data

How the results depend on the processing

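No paired analysis was possible because the lists carry no value per replicate, and for the same reason no replicate could be left out. Of 36 alternatives to the main counts and shares, 22 stayed within the interval, the factor of 1.5 or the test threshold, and 14 moved. The share of peaks in gene spans was 94.6% with protein-coding genes only and 96.5% with any overlap. The share at the gene start, 28.8% by span ends, was 13.1% within 100 bp, 37.0% within 500 bp, 33.9% by the nearest peak edge, 30.4% for peaks at least as wide as the median, 30.2% for peaks up to 400 bp and 37.5% with any annotated start, the last chosen after seeing the data. The share at the finish, 0.507%, was 0.169% within 100 bp, 1.86% within 500 bp and 1.16% by the nearest edge. In each of these settings the start share stayed above the finish share. The share on a RIP peak was 17.4% with at least 50% of the peak overlapped, 18% by the midpoint and 24.8% for peaks at least as wide as the median. Restricting the list to peaks at least as wide as the median left 2676 of 3946 genes. Of the further alternatives, on the gene list counts, 54 kept the count within 1.5 times and 11 did not, all under this restriction: genes named Eif or Eef went from 34 to 17, cytosolic ribosomal proteins from 15 to 8, BTB and SCAN zinc fingers from 19 to 11, m6A factors from 16 to 10, lncRNAs from 10 to 6, immediate early genes from 5 to 3, Mediator and Integrator subunits from 18 to 11, ubiquitin-specific proteases from 16 to 10, solute carriers from 46 to 30, heat shock and chaperonin genes from 25 to 16 and trophoblast markers from 2 to 1. This tally leaves out the 2-cell-like genes under the restriction. Their peaks, in Zscan4d and Zscan4c, were at most 200 bp wide, below the median of 250 bp, so none remained. Peak number and width depend on depth and enrichment, which are unknown here.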
